A study of Homo sapiens with 6 samples.

Results

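B7 family ligands and checkpoint receptors were followed in SU-DHL-2 cells that had been given interleukin-17A (IL-17A). They were 10 of the 19740 genes that the arrays could be matched to. The ligands were CD80, CD86, ICOSLG, CD274 (PD-L1), PDCD1LG2 (PD-L2), CD276 (B7-H3) and VTCN1 (B7-H4), and the receptors were PDCD1 (PD-1), CTLA4 and BTLA. The 10 genes were chosen by what their proteins do, in the knowledge that CD276 was lower with IL-17A in this same contrast. Their differences between the groups are therefore given as a description, and nothing is read from their p-values. A probe belonged to a gene when its RefSeq accession did, and 14 of the 34127 probes on the arrays met that rule.

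SU-DHL-2 is an established diffuse large B-cell lymphoma (DLBCL) line. Cells kept for 72 h with IL-17A at 200 pg/ml (3 samples) were compared with cells kept for 72 h without it (3 control samples), with 1 one-colour Agilent array per sample. The labels do not say whether the samples of a group came from separate cultures. The error given here is the spread between 3 arrays of one cell line, which may be technical. The labels name no other cell type in these samples.

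B7 proteins sit on antigen-presenting cells, B cells among them, and bind receptors of the CD28 family on T cells. CD80 and CD86 give a costimulatory signal through CD28 and are taken away from it by the inhibitory receptor CTLA4. PD-L1 and PD-L2 bind PD-1, which dampens signalling from antigen receptors, and ICOSLG binds ICOS, which supports T cell help to B cells. B7-H3 and B7-H4 are more distant members that are found on many tumours and mostly inhibit T cells. BTLA is an inhibitory receptor of B and T cells whose ligand, HVEM, belongs to the TNF receptor superfamily. In DLBCL the surface level of these proteins is of interest because antibodies to several of them are used as drugs.

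Of the 10 genes, CD276 and PDCD1 are the members whose values the results below turn on, and their promoters are shown for that reason. The sequences run from 250 bases before to 50 bases after an annotated start (RefSeq, GRCh38.p14), and the capitals mark GC boxes, read as GGGCGG on either strand. RefSeq gives CD276 more than 1 start on chromosome 15, and both windows are printed, since its probes behaved differently. They lie on the plus strand at chr15:73684133-73684432 and chr15:73684520-73684819, and that of PDCD1 on the minus strand at chr2:241858845-241859144.
CD276 upstream start: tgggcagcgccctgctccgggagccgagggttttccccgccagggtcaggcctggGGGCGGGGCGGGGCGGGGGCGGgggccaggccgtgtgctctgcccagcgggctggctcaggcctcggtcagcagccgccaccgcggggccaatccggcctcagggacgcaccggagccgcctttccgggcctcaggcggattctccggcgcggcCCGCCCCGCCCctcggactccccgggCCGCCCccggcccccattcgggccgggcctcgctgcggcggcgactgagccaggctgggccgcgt
CD276 downstream start: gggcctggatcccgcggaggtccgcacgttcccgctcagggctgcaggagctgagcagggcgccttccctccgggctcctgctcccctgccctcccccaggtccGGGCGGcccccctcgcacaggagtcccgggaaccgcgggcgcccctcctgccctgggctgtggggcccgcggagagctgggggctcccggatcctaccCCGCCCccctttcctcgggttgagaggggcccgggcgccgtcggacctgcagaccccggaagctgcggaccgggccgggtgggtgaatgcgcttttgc
PDCD1 start: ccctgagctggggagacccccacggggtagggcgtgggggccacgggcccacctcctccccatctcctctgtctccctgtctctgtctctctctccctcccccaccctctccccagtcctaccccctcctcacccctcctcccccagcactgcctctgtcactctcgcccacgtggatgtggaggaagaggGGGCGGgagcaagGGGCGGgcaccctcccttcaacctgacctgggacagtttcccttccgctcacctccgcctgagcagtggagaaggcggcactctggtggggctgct
The upstream CD276 window holds 7 GC boxes and has 80.3% G and C, and the downstream one holds 2 and has 76.0%. The PDCD1 window also holds 2 and has 68.3%. The median over 35116 such windows of the annotation was 58.7% G and C, and 45.0% of them held a GC box. A kappaB motif (GGGNNTTCC, either strand) was found once in the upstream CD276 window and in 6.58% of all windows. In all, 9 of the 10 genes could be matched to 11 windows. Besides CD276, a kappaB motif was found in the window at the downstream start of CD86. The PD-L1 promoter held 1 GAS motif (TTCNNNGAA, 7.66% of all windows) and 2 ISRE cores (GAAA, any 2 bases and GAAA again, 3.57%), the letters that interferon-activated factors are known to read, and the BTLA promoter held 1 GAS motif. TATAAA, present in 11.5% of all windows, was in no member's window. A match in letters does not show that a factor binds there.

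Each array gave between 23570 and 24077 probes well above background, and the values below are log2 signals after quantile normalization. The lowest log2 signal still well above background was between 1.86 and 2.11, depending on the array. Pearson correlations over the tested probes were 0.994 to 0.997 between arrays of a group and 0.993 to 0.995 between groups. The 3 controls were scanned with IL-17A replicate 1, while another scan held the other two treated arrays, so that scan is partly confounded with treatment. For each member the difference within the first scan, which is IL-17A replicate 1 against the 3 controls, is therefore given as well. All 10 B cell markers looked at were well above background on all 6 arrays. Their summed signal was 48612 to 51968 with IL-17A and 48829 to 50144 without, against 1096 to 1462 for the 8 T cell markers. CD79A was bright, at 13.50 to 13.74 on the log2 scale, and PAX5 dim, at 3.48 to 3.95. T cell markers were not absent, with 7 of 8 well above background on all 6 arrays and CD5 on none. CD4 was the brightest of them, at 9.73 to 10.24. Of the markers of fibroblasts and other mesenchymal cells, 5 of 7 were well above background on none. Of 6 myeloid markers with a probe, CD14, ITGAM and CD33 were well above background on all 6 arrays, and CSF1R and CD163 on none.

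Across all 23945 tested probes, 522 (2.18%) differed by at least 1.5-fold with an unadjusted limma p under 0.05, 241 of them higher and 281 (1.17%) lower with IL-17A. The split between higher and lower depended on the scaling. It was 150 higher and 422 lower when arrays were scaled to their 75th percentile, 186 and 426 without normalization, 4 and 13 after normexp background correction, and 260 and 509 with scan as a block. A Benjamini-Hochberg adjusted p under 0.05 was reached by 1818 probes (7.59%), and the 3 arrays of one group did not overlap those of the other for 9341 probes (39.0%). Of the 10 member genes, 7 had a probe that was well above background on at least 3 arrays and were tested, with 8 probes among them. Their median log2 difference was -0.05, with 3 genes on the higher and 4 on the lower side, and the median over the 14747 named genes tested was 0.0032. At its brightest probe CD276 alone passed the fold and p rule, and PDCD1 alone passed the adjusted rule, both lower with IL-17A. That is 1 of 7 genes under either rule, to be set against the 2.18% and 7.59% of probes above, and nothing is read from it, since the contrast entered the choice of the genes.

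**Figure D1:**
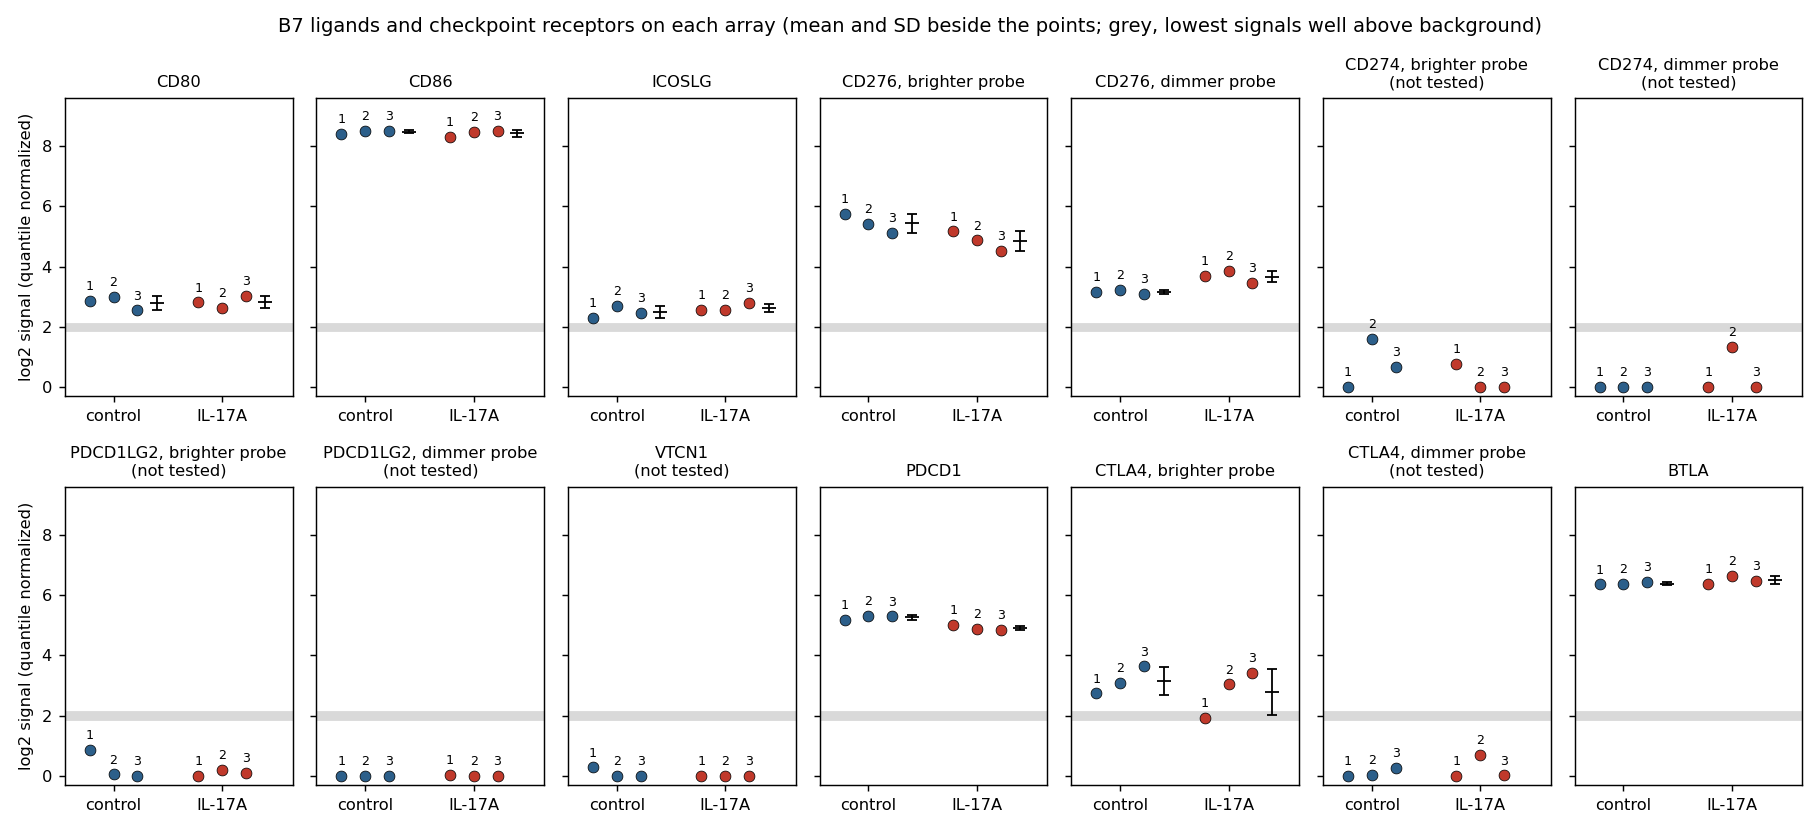
Log2 quantile-normalized signal (y axis) of each of the 14 probes of the 10 genes in the 3 control (blue) and 3 IL-17A (red) arrays. The number beside a point is the replicate, the bar is the mean with its SD for the tested probes, and the grey band spans the lowest signals well above background (1.86 to 2.11). CD86 was far above the band in every array, CD274, PDCD1LG2 and VTCN1 lay below it, and the brighter probe of CD276 was lower and the dimmer higher with IL-17A.

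CD86, the main partner of CD28 and CTLA4 on B cells, was clearly expressed and nearly level. Its log2 signal was 8.30, 8.47 and 8.51 with IL-17A and 8.42, 8.51 and 8.52 in the controls. The means of 8.43 ± 0.11 and 8.48 ± 0.06 (SD, n = 3 each) gave a log2 difference of -0.05 (SE 0.07), within the spread of the arrays. IL-17A replicate 1 was the lowest of the 6 arrays, so that the difference within the first scan was -0.18.

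CD80, the other ligand of CD28 and CTLA4, gave a signal just above the background. It measured 2.81, 2.64 and 3.03 on the log2 scale with IL-17A and 2.86, 2.99 and 2.55 in the controls. The groups overlapped, and their difference was 0.02 (SE 0.15), with 0.01 within the first scan. ICOSLG, the only known ligand of ICOS, was as dim, at 2.56, 2.57 and 2.79 with IL-17A and 2.30, 2.71 and 2.47 without. Its difference of 0.15 (SE 0.12) was also within the spread, and it was 0.07 within the first scan. These were dim spots. The raw brightness of the CD80 spot was 23 to 26 over a local background of 13 to 15.5, while that of CD86 was 352.0 to 391.5.

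PD-L1 and PD-L2, the ligands of PD-1, and B7-H4 were not measurable in either group. Neither the 2 CD274 probes, nor the 2 PDCD1LG2 probes, nor the VTCN1 probe was well above background on any of the 6 arrays. Raw brightness was 16 to 21 for the CD274 spots and 15 to 19 for the VTCN1 spot, over local backgrounds of 11 to 14. These spots give only an upper limit, so that a change in these transcripts below the limit would not have been seen, and no fold change is given.

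CD276, a ligand whose T cell receptor is not settled, was read by 2 probes of the same transcript (NM_001024736), and these moved in opposite directions. The brighter probe (A_33_P3222917) measured 5.17, 4.87 and 4.51 with IL-17A and 5.76, 5.43 and 5.12 in the controls. The means were 4.85 ± 0.33 and 5.44 ± 0.32 (SD, n = 3 each), and the log2 difference was -0.59 (SE 0.23). IL-17A replicate 1 was brighter than control replicate 3, so the groups overlapped. The fold change of 1.501 was just over the threshold, and the next member on the lower side, CTLA4, stood at 1.29 without passing the p. Leaving out IL-17A replicate 2 or 3, or control replicate 1 or 2, took CD276 below the fold and p rule, with log2 differences of -0.60, -0.42, -0.42 and -0.59. Within the first scan the difference was -0.26, which is smaller than the SD of either group and rests on IL-17A replicate 1 alone as the treated array.

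The dimmer CD276 probe (A_33_P3217393) measured 3.69, 3.85 and 3.47 with IL-17A and 3.16, 3.22 and 3.08 without. Each IL-17A array was above each control, and 39.0% of all tested probes showed such a separation in either direction. The log2 difference was 0.51 (SE 0.10), a 1.43-fold higher signal that passed the adjusted rule (limma adjusted p = 0.047) but not the fold rule. That pass was lost when any single array was left out, and by the methods' t-test. It was also lost with 75th percentile scaling, without normalization, after normexp, with no filter, with a variance trend and with the replicate or scan block. It was kept with the series matrix, with detection on all arrays and with dim signals raised to a floor. Within the first scan the difference was 0.53. The spot of this probe was dim, with a raw brightness of 27 to 31.5 over a local background of 12 to 13.5. That of the brighter probe was 37 to 76 over 12 to 14.5. Taken within an array, the brighter probe exceeded the dimmer by 1.48, 1.02 and 1.04 with IL-17A and by 2.60, 2.21 and 2.03 in the controls. The distance between the probes was thus smaller on every IL-17A array than on every control, with a mean difference of -1.0998. Averaged over both probes, CD276 differed by -0.04 between the groups.

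How often probes of 1 transcript differed in opposite directions was counted over all genes. Of 2853 genes with more than 1 tested probe under one accession, the brightest probe and the next differed in sign for 35.1%, as most differences were near 0. Opposite signs with both unadjusted p-values under 0.05 were seen for 39 genes (1.37%), and a gap between the differences at least as large as that of CD276 for 11 (0.386%), with a median gap of 0.11. Among the 304 genes whose probes were about as dim, with means under 6 and over 3 on the log2 scale, these counts were 4 (1.32%) and 3 (0.987%). CD276 is among the genes in each of these counts. Its fall at the brighter probe was known when the genes were chosen, so these shares are a description and no test of CD276. The probe sequences were not used here, and whether the probes read different transcript forms of CD276 was not tested.

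**Figure D2:**
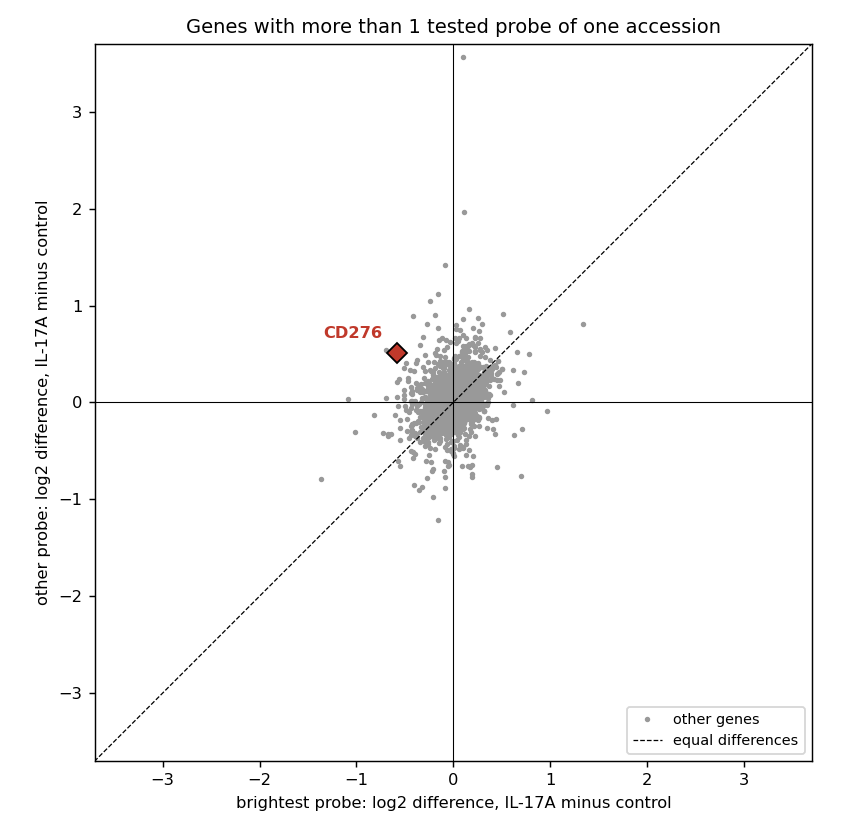
Log2 difference, IL-17A minus control, of the brightest tested probe (x axis) and the next brightest (y axis) for 2853 genes with more than 1 tested probe of one RefSeq accession. Each grey point is a gene, the dashed line marks equal differences, and CD276 (red) lies at -0.59 and 0.51, where the brightest probe was lower and the other higher.

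The direction of each CD276 probe held in every alternative run, and the size did not. Alternatives that change only the filter, the error estimate or the replicate block leave the difference as it was. They could not have changed the direction. For the dimmer probe, whose groups did not overlap, leaving out an array could not have changed it either. The brighter probe was lower with IL-17A in all 17 alternatives that kept it as a single probe, between -0.75 and -0.20, and the dimmer was higher in all 17, between 0.06 and 0.61. Both were smallest after normexp background correction with an offset of 50, at -0.20 and 0.06.

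**Figure D3:**
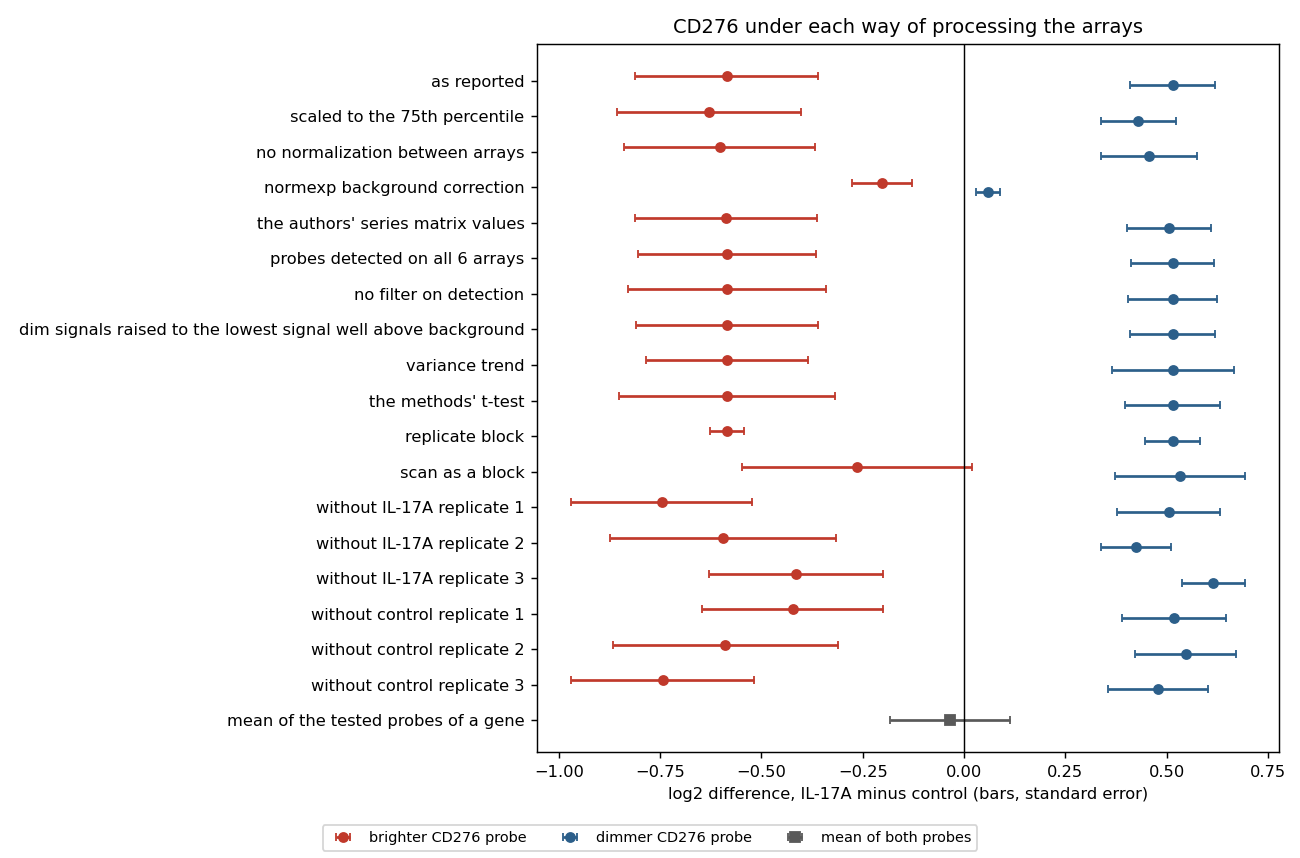
Log2 difference between IL-17A and control (x axis, with its standard error as a bar) of the brighter (red) and dimmer (blue) CD276 probe, for the values as reported and under each alternative (y axis). All red points lie left of 0 and all blue points right of it, with the pair closest together after normexp correction, and the mean of the probes (grey) lies at -0.04.

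The genes whose signal over the 6 arrays was most like that of the brighter CD276 probe were PIN1P1, AHI1, LOC100131257, AEN and CD27. Their Pearson r with it was 0.996, 0.992, 0.991, 0.990 and 0.989 over the 6 arrays, which share their cell line and scans. The comparison covered the 17870 probes well above background on all arrays that belonged to named genes other than the members. Of these probes, 88 (0.492%) had r above 0.95. The top genes just listed had smaller log2 differences than CD276. AEN, a nuclease induced by p53, measured 6.43, 6.29 and 6.18 with IL-17A and 6.73, 6.59 and 6.47 without, a difference of -0.30. CD27, a costimulatory receptor of the TNF receptor superfamily that B cells also carry, differed by -0.13. Each of these genes, like that probe, fell from replicate 1 to 3 in both groups, so the likeness follows the replicate order as well as the treatment. A likeness over so few arrays is a description of these arrays.

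PDCD1, the receptor of PD-L1 and PD-L2, was lower with IL-17A on every array. Its log2 signal was 5.0001, 4.88 and 4.85 with IL-17A and 5.17, 5.32 and 5.29 in the controls. The means of 4.91 ± 0.08 and 5.26 ± 0.08 (SD, n = 3 each) gave a difference of -0.35 (SE 0.06), 1.27-fold lower, and the groups did not overlap, which was so for 39.0% of all tested probes. The difference was in the same direction within the first scan, at -0.26, which is also its value with scan as a block. In all 17 alternatives it lay between -0.40 and -0.14. Those that change only the filter, the error estimate or the replicate block could not have reversed it. Nor could leaving out an array, as the groups did not overlap. PDCD1 passed the adjusted rule with all 6 arrays, and no longer did when any 1 of them was left out.

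CTLA4, which competes with CD28 for CD80 and CD86, was at the limit of detection. Its brighter probe measured 1.91, 3.04 and 3.41 with IL-17A and 2.73, 3.08 and 3.63 without, and stood clear of the background on 2 of 3 treated arrays and on all 3 controls. The groups overlapped and the difference was -0.36 (SE 0.44). It rested on IL-17A replicate 1, as it was 0.07 without that array and -1.23 within the first scan. The other CTLA4 probe was not well above background on any array.

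BTLA, in contrast, was clearly expressed, at 6.37, 6.63 and 6.48 with IL-17A and 6.36, 6.37 and 6.43 in the controls. The difference of 0.11 (SE 0.07) was within the spread, and it was -0.0093 within the first scan. Its ligand HVEM (TNFRSF14) measured 9.80, 9.83 and 9.86 with IL-17A and 9.61, 9.73 and 9.82 without, and the groups overlapped here too, at a difference of 0.11 (SE 0.06, limma adjusted p = 0.259). LTA, another HVEM ligand, was dim, at 2.92, 2.58 and 2.27 with IL-17A and 3.29, 3.12 and 2.87 without. The groups overlapped, and the difference of -0.50 (SE 0.19, limma adjusted p = 0.142) passed neither rule and was -0.17 within the first scan. CD160 and LIGHT (TNFSF14) were not well above background on any array.

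A wider set of 76 genes around these ligands and receptors was also looked at, of which 74 had a probe and 62 were tested. Each gene was counted at its brightest probe. Under the fold and p rule 2 of the 62 passed, both lower with IL-17A, against 283 of the 14747 named genes tested. Under the adjusted rule 3 passed, 2 higher and 1 lower, against 1157 of the 14747. The median log2 difference of the 62 was 0.05, with 40 genes on the higher side and 22 on the lower. Over all named genes tested, 7509 were higher and 7238 lower. These lists were written with earlier results of these data known and are given by their counts.

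**Figure D4:**
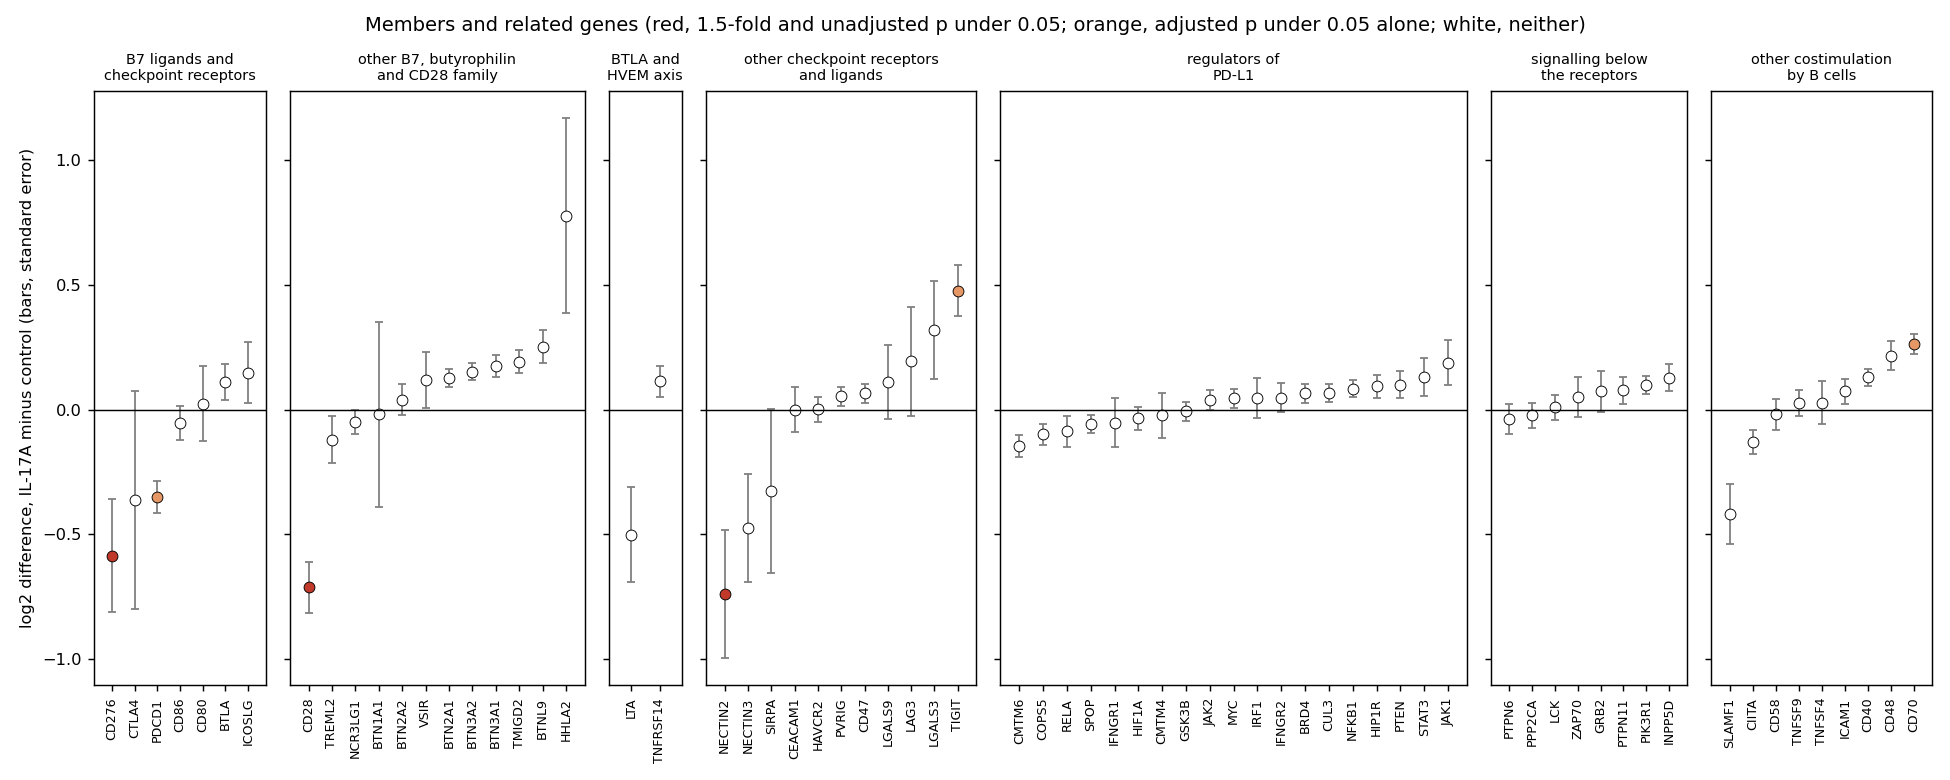
Log2 difference, IL-17A minus control (y axis, with its standard error as a bar), of the brightest tested probe of each of the 7 tested members and of 61 related genes, grouped by list. Red points passed the fold and p rule, orange points only the adjusted rule, and white points neither. CD276, CD28 and NECTIN2 are the red points, and the regulators of PD-L1 shown all lie between -0.15 and 0.19.

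Among the other B7, butyrophilin and CD28 family genes, 1 of 12 tested passed either rule at its brightest probe. Dimmer probes of BTN3A1 and BTN3A2 passed the adjusted rule, higher by 0.29 and 0.32 (limma adjusted p = 0.045 and 0.033). The brighter probes of these genes, at 0.18 and 0.15, did not. The gene past the rules at its brightest probe was CD28 itself, the costimulatory receptor for CD80 and CD86. CD28 measured 4.32, 4.00 and 4.04 with IL-17A and 4.89, 4.73 and 4.88 in the controls, so that every IL-17A array was below every control. The log2 difference was -0.71 (SE 0.10), 1.64-fold lower, with a limma adjusted p of 0.033, and -0.51 within the first scan. Another CD28 probe was not well above background on any array. CD28 is a T cell gene in textbooks, and the summed signal of the 8 T cell markers was 1096 to 1186 with IL-17A and 1275 to 1462 in the controls, most of it from CD4. Of these markers CD3E, a chain of the T cell receptor complex, also passed the adjusted rule, at 2.87, 2.71 and 2.76 with IL-17A against 3.08, 3.32 and 3.30, a difference of -0.46 (SE 0.08, limma adjusted p = 0.040). The CD3E spot was dim, with a raw brightness of 21.5 to 28 over a local background of 11 to 15. CD8A, CD4 and CD3D also lay on the lower side, at -0.51, -0.31 and -0.11, and another CD8A probe gave -0.06. CD2, CD3G and CD7 lay on the higher side, at 0.51, 0.12 and 0.06. The myeloid markers summed to 141.5 to 149.6 with IL-17A and 153.4 to 205.8 without, and the mesenchymal ones to 25.0 to 31.3 and 21.9 to 31.2. Their part in the lower CD28 and PDCD1 signals was not tested, and fewer cells with a transcript cannot be told apart from less of it per cell. ICOS was not well above background on any array.

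HHLA2, a further B7 family ligand, is named here after its values were seen, as it had the largest positive difference of the related genes. It measured 4.39, 3.10 and 3.29 with IL-17A and 3.26, 2.71 and 2.48 without, a difference of 0.78 (SE 0.39, limma adjusted p = 0.233) with overlapping groups. The array that stood out was IL-17A replicate 1, and within the first scan the difference was 1.57. The spot was dim, with a raw brightness of 23 to 34 over a local background of 11 to 15, and was well above background on 5 arrays. Another HHLA2 probe was not well above background on any array.

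Among the other checkpoint receptors and ligands, 11 of 18 were tested. NECTIN2, a ligand of the receptors TIGIT, CD226 and PVRIG, measured 4.23, 4.19 and 3.43 with IL-17A and 4.97, 4.67 and 4.43 in the controls. IL-17A replicate 3 was far below the other IL-17A arrays, and the groups did not overlap. The log2 difference was -0.74 (SE 0.26), 1.67-fold lower, which passed the fold and p rule but not the adjusted one (limma adjusted p = 0.121). It was -0.46 within the first scan, and it no longer passed without IL-17A replicate 3 (-0.48) or control replicate 1 or 2 (-0.60 and -0.75), by the methods' t-test or with scan as a block. TIGIT, an inhibitory receptor of that axis, moved the other way, at 3.83, 4.05 and 4.03 with IL-17A and 3.65, 3.50 and 3.34 without, a difference of 0.48 (SE 0.10, 1.39-fold, limma adjusted p = 0.049). A dimmer TIGIT probe gave 0.32 (SE 0.17) with overlapping groups, and within the first scan the brighter one gave 0.34. The adjusted p of TIGIT and of CD3E rose above the threshold when any of the 6 arrays was left out, and that of CD28 when any but IL-17A replicate 1 was left out.

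**Figure D5:**
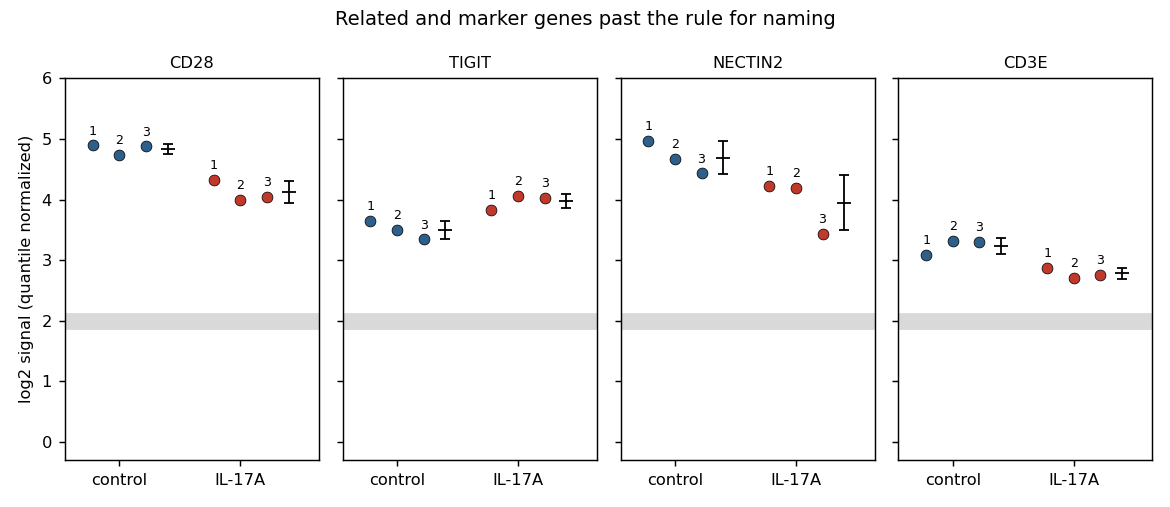
Log2 quantile-normalized signal (y axis) of CD28, TIGIT, NECTIN2 and CD3E in the 3 control (blue) and 3 IL-17A (red) arrays, with replicate numbers beside the points, the mean and SD as bars, and the range of the lowest signals well above background in grey. The IL-17A arrays lie below the controls for CD28, NECTIN2 and CD3E and above them for TIGIT.

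The genes known to regulate PD-L1 were all expressed and nearly level. All 20 were tested, among them the interferon pathway genes JAK1, JAK2 and IRF1 and CMTM6, which keeps PD-L1 at the cell surface, and 0 of 20 passed either rule by limma. At an unadjusted limma p under 0.05, which 31.3% of all tested probes reached, there were 3, 2 higher and 1 lower. The methods' t-test gave 5 such genes, against 28.8% of all probes, and 1 after adjustment. Their differences ran from -0.15 for CMTM6 to 0.19 for JAK1. Of the genes that signal below PD-1 and BTLA, 8 of 10 were tested, among them the phosphatases PTPN6 and PTPN11, and 0 passed either rule by limma, with 1 of 8 at an unadjusted p under 0.05 by limma and 1 by the methods' t-test, to be read against the same 31.3% and 28.8%. Their differences ran from -0.04 to 0.13.

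Of 9 genes listed for other costimulation by B cells, all tested, CD70 was the only one past the adjusted rule. The list also holds CIITA, which controls MHC class II genes. At an unadjusted limma p under 0.05, which 31.3% of all tested probes reached, there were 5, 3 higher and 2 lower. CD70, the ligand of CD27, measured 12.41, 12.42 and 12.34 with IL-17A and 12.12, 12.11 and 12.15 without. Each IL-17A array was above each control, at a difference of 0.26 (SE 0.04, 1.20-fold, limma adjusted p = 0.033), and within the first scan it was 0.28. Its adjusted p was above the threshold when any 1 of the 6 arrays was left out, without normalization, and with scan or the replicate number as a block. The other 8 genes of that list passed neither rule and ran from -0.42 to 0.22.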

How the data were processed

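Total RNA was labeled with Cy3 and hybridized by the authors to 1-colour Agilent arrays. The deposited scanner files hold a linear intensity for each spot, from which Feature Extraction 11.0.1.1 had subtracted the background. The authors' series matrix holds log2 values (quantile normalized, per the paper's methods) and served as an alternative. Control spots and non-uniform spots (4 to 25 per array) were left out, intensities below 1 were set to 1, 43118 spots were averaged to 34127 probes on the log2 scale, and arrays were quantile normalized. No spot was saturated. Of the probes, 25771 were named to 19740 genes by RefSeq accession (GRCh38.p14). A probe counted as detected where it was positive, significant and well above background, and those detected on at least 3 of 6 arrays were tested in limma 3.58.1 under R 4.3.3 with no covariate, two-sided, and with Benjamini-Hochberg adjustment. A gene is given by its brightest tested probe.

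All 10 members, with each probe, were named. Of the related and marker lists, genes past the fold and p rule, or with an adjusted p under 0.05 and a fold of at least 1.25, were named, and the 5 genes most like CD276. HHLA2, CD70, BTN3A1, BTN3A2, the T cell markers other than CD3E, the HVEM axis genes and examples given for a list were added with their values in view. The members and lists were chosen with earlier results of these data known. The fit was tested on simulated data. Not every gene of the lists is reported by name here. With 3 arrays per group, the number of arrays limits the precision. The alternatives were 75th percentile or no scaling, normexp, the series matrix, other detection filters, dim signals raised to a floor, the methods' t-test, a variance trend, a replicate block, scan as a block, a fold of 2, the mean of a gene's probes and each array left out in turn. The dimmer CD276 probe, CD28, NECTIN2, TIGIT, CD3E and CD70 were added to the alternatives after seeing the data.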

Additional observations from a re-analysis of the deposited data

How the results depend on the processing

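The direction of both CD276 probes, PDCD1, CD28, NECTIN2, TIGIT, CD3E and CD70 was kept under all alternatives run for them, while the calls were not. Alternatives that change only the filter, the error estimate or the replicate block could not have changed a direction. Nor could leaving out an array where the groups did not overlap. CD276 moved to -0.20 after normexp and to -0.036 as the mean of its probes, and its dimmer probe to 0.058 after normexp. Normexp also brought CD28 from -0.71 to -0.17, NECTIN2 from -0.74 to -0.18, TIGIT from 0.48 to 0.081, CD3E from -0.46 to -0.051 and PDCD1 from -0.35 to -0.14, and left CD70 at 0.25. The number of member genes past the fold and p rule fell from 1 to 0 after normexp, with no filter on detection, by the methods' t-test, at a fold of 2 and with the mean of a gene's probes, and was 0 to 1 without single arrays. With scan as a block it was 1, but the gene was CTLA4, not CD276. The number past the adjusted rule fell from 1 to 0 without normalization, after normexp, with no filter, by the t-test, with the replicate block, with scan as a block, and was 0 without any single array. The related genes past the fold and p rule, 2 as reported, were 4 with 75th percentile scaling, 0 after normexp, 1 by the t-test, 1 with scan as a block, 0 at a fold of 2, and 1 to 4 without single arrays. Those past the adjusted rule, 3 as reported, were 0 without normalization, 5 after normexp, 10 with a variance trend, 0 with the replicate block, 0 with scan as a block, 5 with the mean of probes, and 0 to 1 without single arrays. Over all probes, the 522 calls by fold and p became 17 after normexp, 299 when detection on all 6 arrays was asked for, 976 with no filter and 82 at a fold of 2. The 1818 adjusted calls became 46 without normalization, 3846 with a variance trend, 48 with scan as a block and 2 to 983 without single arrays. Over all tested probes the replicate numbers did not pair the arrays, since the deviations of same-numbered arrays correlated at -0.087, -0.0022 and -0.047. The brighter CD276 probe, however, fell from replicate 1 to 3 in both groups, and its SE was 0.04 with the replicate block and 0.23 without. With the replicate block 527 probes passed the fold and p rule and 4 the adjusted one. The causes were not tested.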
